A study of Mus musculus with 16 samples.

Results

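Telomerase and shelterin genes were followed in the hippocampus of a pair of mouse lines, SAM/P-8 and its resistant counterpart SAM/R-1. The 10 genes are Tert, Terf1, Terf2, Terf2ip, Tinf2, Acd, Pot1a, Pot1b, Dkc1 and Rtel1. They were chosen by name, with their levels and the differences between the groups on these arrays already known. Their probes were found through the RefSeq transcript that the array files give for each probe. This gave 15 probes for 9 of the 10 genes among 41174 non-control probes. No probe was assigned to Acd, the shelterin protein TPP1 that brings telomerase to the chromosome end, and Acd was not analysed here. All 15 probes passed the filter on dim probes, which kept a probe if some group had it well above background on each of its 4 arrays.

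Telomeres are the repeats that cap chromosome ends and shorten as cells divide. Telomerase adds repeats back: Tert is its reverse transcriptase, Terc is its RNA template, and dyskerin, the product of Dkc1, stabilises that RNA. Shelterin covers the repeats and keeps them from being handled as broken DNA. Terf1 and Terf2 encode the proteins that bind the double-stranded repeat, Terf2ip encodes Rap1, which rides on TRF2, Tinf2 encodes TIN2, which bridges the complex, and Pot1a and Pot1b bind the single-stranded overhang. Tert transcripts are scarce in most adult tissues, while shelterin genes are expressed in nearly all cells.

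The arrays measured total RNA of hippocampus from male mice of the senescence-accelerated mouse (SAM) lines, which the labels derive from AKR/J stock. SAM/P-8 is the senescence-prone line and SAM/R-1 the senescence-resistant line, so each strain is 1 inbred line. Feeding began at 8 weeks of age and lasted 8 weeks, with a standard diet (control) or that diet with 0.1% CCH, coral calcium hydride. The 4 groups, SAM/P-8 control, SAM/P-8 CCH, SAM/R-1 control and SAM/R-1 CCH, held 4 one-colour arrays each, and the study asked how CCH changes hippocampal expression in accelerated senescence. Whether each array came from its own animal is not in the labels, and p-values therefore cover the spread between these samples, which may be technical.

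Each slide held 1 group, and slide and group cannot be told apart. Per array 28920 to 33333 of 43379 non-control spots were well above background. Precision is limited by the number of arrays. Markers of neurons, astrocytes, microglia and oligodendrocytes were well above background on 16 of 16 arrays. SAM/P-8 CCH replicate 4 stood apart with a striatal marker score of 3.97 on the log2 scale, where the lowest array of its group was at -0.43. A marker score is the mean over the list after each gene's own mean over the 16 arrays was subtracted. The score of 3 choroid plexus markers varied widely within every group. It ran from -2.09 to 1.82 in SAM/P-8 control and from -3.11 to 1.14 in SAM/P-8 CCH. In SAM/R-1 it ran from -1.12 to 1.47 on the control diet and from -3.13 to 0.99 on the CCH diet. In whole tissue, fewer cells of a type and less RNA per cell cannot be told apart.

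Levels are log2 processed signal minus the 75th percentile of the array, and arrays are listed from replicate 1 to 4. Differences are log2 values ± SE from a limma fit over all 16 arrays, n = 4 and 4 unless stated, with the p adjusted over the 29009 probes kept. A probe is called past an adjusted p of 0.05. Because of how the genes were chosen, their values and adjusted p describe where they stood among all probes and are no independent evidence. A gene with several probes was counted at its brightest probe.

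The upstream windows of Tert and Terf2 are shown because these genes carried the called strain differences. Each is the 250 bases before the annotated start, written 5′ to 3′ along the gene from RefSeq on GRCm38.p6, with GGGCGG (GC box), CACGTG (E-box) and CCAAT searched on both strands. Capitals mark the matches, and a GC box on the other strand reads CCGCCC. The Tert window lies at chr13:73626661-73626910 on the plus strand and the Terf2 window at chr8:107096546-107096795 on the minus strand.
Tert: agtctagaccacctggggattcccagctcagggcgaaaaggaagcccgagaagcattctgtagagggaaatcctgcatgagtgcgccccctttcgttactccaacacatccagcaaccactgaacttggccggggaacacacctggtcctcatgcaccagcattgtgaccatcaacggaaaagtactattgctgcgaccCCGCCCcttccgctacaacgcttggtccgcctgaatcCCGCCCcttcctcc
Terf2: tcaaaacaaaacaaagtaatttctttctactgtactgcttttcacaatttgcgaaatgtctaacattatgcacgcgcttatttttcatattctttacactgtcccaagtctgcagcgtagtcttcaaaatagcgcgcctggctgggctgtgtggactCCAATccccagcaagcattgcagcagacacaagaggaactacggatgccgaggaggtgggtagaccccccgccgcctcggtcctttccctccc
The Tert window held 2 GC boxes, 51 to 46 and 14 to 9 bases upstream of the start, and neither other motif. The Terf2 window held 1 CCAAT, 93 to 89 bases upstream, and neither other motif. No 2 matches overlapped in these windows. Over 32851 RefSeq windows of this length, 32.7% held a GC box, 33.8% a CCAAT and 6.02% the E-box. Windows were found for 9 of the 10 genes. Terf2 had a second window, chr8:107096549-107096798, which held the same CCAAT, 90 to 86 bases upstream of its start. The letters are those of the reference assembly and not of SAM/P-8 or SAM/R-1. These matches are a description of the letters, and their part in the strain differences was not tested.

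Tert was the gene of the 9 with the largest difference in 4 comparisons, the exception being the strain difference on the CCH diet. Its transcript level was low on every array and differed in order SAM/R-1 control, then SAM/P-8 CCH and SAM/R-1 CCH together, then SAM/P-8 control. Its 1 probe stood at -5.03, -4.91, -5.00 and -5.43 in SAM/P-8 control. It stood at -4.72, -4.58, -4.55 and -4.58 in SAM/P-8 CCH. The SAM/R-1 control arrays gave -4.10, -4.15, -4.11 and -4.23. The SAM/R-1 CCH arrays gave -4.59, -4.59, -4.76 and -4.64. The 4 SAM/R-1 control arrays lay above all the others and the 4 SAM/P-8 control arrays below all the others, while the groups on CCH overlapped. SAM/P-8 control replicate 4 was the only array of the 16 on which Tert was not well above background.

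On the control diet the Tert level of SAM/P-8 was 1.93-fold below that of SAM/R-1 (-0.95 ± 0.09, limma adjusted p = 3.87e-06). Between the strains fed CCH the difference was 0.04 ± 0.09 (adjusted p = 0.833), with a 95% interval from -0.16 to 0.23. With CCH, Tert rose 1.40-fold in SAM/P-8 (0.48 ± 0.09, adjusted p = 0.0290), a call lost with quantile normalization (0.42, adjusted p = 0.0551) and with arrays scaled to their median (0.44, adjusted p = 0.0638). In SAM/R-1 the difference had the other sign, -0.50 ± 0.09, and missed the threshold (adjusted p = 0.0610), though the 4 and 4 arrays did not overlap. The CCH effect in SAM/P-8 minus that in SAM/R-1 was 0.98 ± 0.13 (adjusted p = 0.00358). The comparisons share arrays: the SAM/P-8 control arrays enter the strain difference on that diet as well as the effect of CCH in that line.

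**Figure D1:**
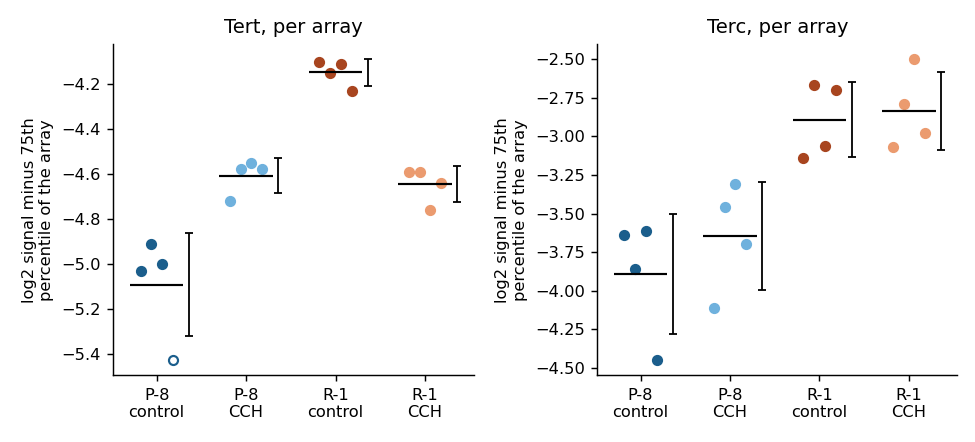
Tert and Terc per array, with log2 signal minus the 75th percentile of the array on the vertical axis and the 4 groups on the horizontal axis, bars showing mean and SD, n = 4, and the open point an array on which the probe was not well above background. For Tert the SAM/R-1 control arrays, -4.23 to -4.10, lie above all others and the SAM/P-8 control arrays, -5.43 to -4.91, below all others, while Terc separates by strain on both diets.

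The Tert spot was dim before any correction. Its median signal in scanner units was 88 to 95 in SAM/P-8 control, 101 to 113 in SAM/P-8 CCH, 113 to 120.5 in SAM/R-1 control and 98 to 101 in SAM/R-1 CCH. The local background was 35 to 45 in all groups and negative control spots had medians of 43.5 to 51. After the local background was subtracted, the spot stood at 51 to 56 in SAM/P-8 control and 70.5 to 81 in SAM/R-1 control, which did not overlap. It stood at 57 to 76 in SAM/P-8 CCH and 53 to 58 in SAM/R-1 CCH. On that scale SAM/R-1 CCH overlapped with SAM/P-8 control, and SAM/P-8 CCH with SAM/R-1 control, pairs that were separate on the processed scale.

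The size of the Tert differences depended on the background correction. Normexp was run with an offset of 50 added to each corrected signal, and such a constant makes log2 differences of a dim spot smaller by arithmetic. The Tert spot stood only 51 to 81 above its local background. Without an offset, its mean signal over local background was 54.6 in SAM/P-8 control and 75.6 in SAM/R-1 control. The mean processed signals of these groups were 33.6 and 57.8. The shares of the offset and of the background subtraction in the smaller differences were not tested. With the normexp correction the control-diet strain difference was -0.47 (adjusted p = 0.668), the CCH effect in SAM/P-8 0.33 (adjusted p = 0.850), that in SAM/R-1 0.13, with its sign turned (adjusted p = 0.795), and the interaction 0.20 (adjusted p = 1.00). Under normexp 2 arrays stood apart for Tert, SAM/P-8 CCH replicate 2 at -2.57 and SAM/R-1 CCH replicate 2 at -1.75, against -3.60 to -3.02 for the 14 others. Without both, a choice made after seeing the data, the strain difference was again -0.47 and passed (adjusted p = 2.26e-05). With CCH the SAM/P-8 difference was then 0.12 (adjusted p = 0.254), that in SAM/R-1 -0.26 (adjusted p = 0.222) and the interaction 0.38 (adjusted p = 0.285). The direction of the control-diet strain difference was therefore the same under both corrections, and the CCH effects were not called under normexp.

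**Figure D2:**
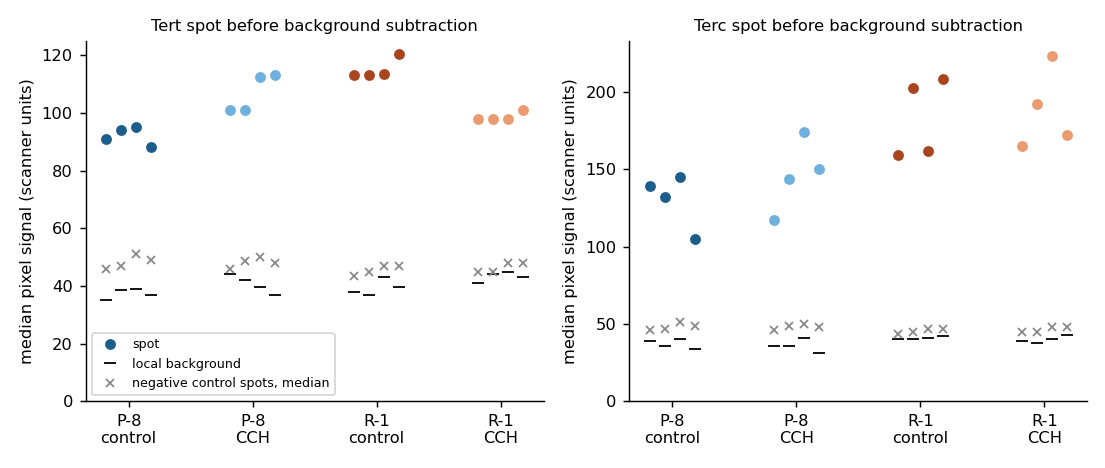
Median pixel signal in scanner units (vertical axis) of the Tert spot and the Terc spot before background subtraction on each array of the 4 groups (horizontal axis), with dashes for the local background and crosses for the median of the negative control spots. The Tert spot, 88 to 120.5, stands above its local background of 35 to 45 on every array, and SAM/P-8 control, 88 to 95, lies below the other groups.

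Leaving out single arrays kept the Tert strain difference on the control diet between -1.01 and -0.83 and called in each case (highest adjusted p = 2.98e-05), and the interaction between 0.87 and 1.04 (highest adjusted p = 0.0132). For CCH in SAM/P-8 it lay between 0.37 and 0.54 with an adjusted p between 0.0214 and 0.0699. This call was lost on leaving out SAM/P-8 CCH replicate 2, 3 or 4 or SAM/P-8 control replicate 3. The CCH effect in SAM/R-1 gained a call without SAM/P-8 control replicate 2 or 4, where its adjusted p was as low as 0.00592.

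Terc, the telomerase RNA, comes from a list of 74 genes of the telomere pathway and not from the 10. It was lower in SAM/P-8 on both diets and well above background on 16 of 16 arrays. Its 1 probe stood at -3.64, -3.86, -3.61 and -4.45 in SAM/P-8 control and at -3.14, -2.67, -3.06 and -2.70 in SAM/R-1 control. With CCH it stood at -4.11, -3.46, -3.31 and -3.70 in SAM/P-8 and at -3.07, -2.79, -2.50 and -2.98 in SAM/R-1. No SAM/P-8 array reached the lowest SAM/R-1 array on the same diet. The difference was -0.99 ± 0.21 on the control diet, 1.99-fold lower (adjusted p = 0.00435), and -0.81 ± 0.21 on the CCH diet (adjusted p = 0.0181). Its interaction of 0.19 ± 0.29 was not called (adjusted p = 0.963). The labelling primed on oligo(dT), per the labels, and mature Terc is an RNA without a regular poly(A) tail. With normexp the Terc differences were -0.61 and -0.59 and were not called (adjusted p = 0.272 and 0.300), and without the 2 arrays named above they were -0.61 and -0.51 and were called (adjusted p = 0.00410 and 0.0358). Without SAM/P-8 CCH replicate 1 or SAM/R-1 CCH replicate 3 the CCH-diet difference of Terc lost its call (adjusted p = 0.0545 and 0.0610).

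Dkc1 showed no called difference. Its brighter probe stood at -2.79, -2.72, -2.75 and -2.72 in SAM/P-8 control and at -2.33, -2.71, -2.82 and -2.63 in SAM/R-1 control. With CCH the SAM/P-8 arrays lay between -2.82 and -2.62 and the SAM/R-1 arrays between -2.85 and -2.66. The groups overlapped in each comparison, and the differences ran from -0.12 ± 0.09 for the strains on the control diet (95% interval -0.31 to 0.06) to 0.05 ± 0.09 for CCH in SAM/P-8. The other Dkc1 probe gave 0.06 ± 0.07 for that strain difference, of the opposite sign, and 0.12 ± 0.07 for CCH in SAM/P-8. Rtel1, a helicase that opens telomeric loops and G-quadruplexes, ranged from -1.31 to -0.97 over the 16 arrays. Its differences between groups lay between -0.03 and 0.02, and the 95% interval of the strain difference on the control diet was -0.22 to 0.16.

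On both diets Terf2 was the higher in SAM/P-8, at each of its 4 probes. The brightest probe stood at 1.23, 1.01, 1.14 and 1.13 in SAM/P-8 control and at 0.81, 0.95, 0.90 and 0.91 in SAM/R-1 control. With CCH it stood at 1.36, 1.28, 1.36 and 1.26 in SAM/P-8 and at 1.15, 0.86, 1.01 and 0.90 in SAM/R-1. On each diet all 4 SAM/P-8 arrays lay above all 4 SAM/R-1 arrays. The strain difference was 0.23 ± 0.07 on the control diet, 1.17-fold (adjusted p = 0.0280), and 0.34 ± 0.07 on the CCH diet, 1.26-fold (adjusted p = 0.00296).

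The 3 other Terf2 probes gave 0.31, 0.25 and 0.28 on the control diet, with adjusted p of 0.00336, 0.00790 and 0.0308. On the CCH diet they gave 0.29, 0.42 and 0.31, with adjusted p of 0.00550, 1.12e-04 and 0.0173. At each of these probes as well the 4 and 4 arrays did not overlap on either diet. The probes read 1 RefSeq transcript and the same RNA, so they are not replicates of the strains. The mean over the 4 probes differed by 0.27 (adjusted p = 0.00194) and 0.34 (adjusted p = 2.66e-04). The brightest probe lost its control-diet call under normexp with all arrays (0.23, adjusted p = 0.186), kept it there without the 2 arrays (0.23, adjusted p = 0.0197), and lost it when SAM/P-8 control replicate 1, 3 or 4 or SAM/R-1 control replicate 1 or 3 was left out (highest adjusted p = 0.0817). On the CCH diet it stayed called under each alternative run and without each array, with an adjusted p of at most 0.0132 without an array.

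With CCH in SAM/P-8, 1 of the 4 Terf2 probes was called. That probe stood at -1.88, -1.93, -1.92 and -1.82 in SAM/P-8 control and at -1.56, -1.39, -1.57 and -1.58 in SAM/P-8 CCH, without overlap, and the difference was 0.36 ± 0.06, 1.29-fold (adjusted p = 0.0111). The brightest probe gave 0.19 ± 0.07 (adjusted p = 0.148), and the other two gave 0.16 (adjusted p = 0.197) and 0.25 (adjusted p = 0.123). At the brightest probe the call was not made, while the mean over all probes gave 0.24 and was called (adjusted p = 0.0440). In SAM/R-1 the 4 probes gave 0.08, 0.17, 0.19 and 0.21 with CCH and none was called.

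**Figure D3:**
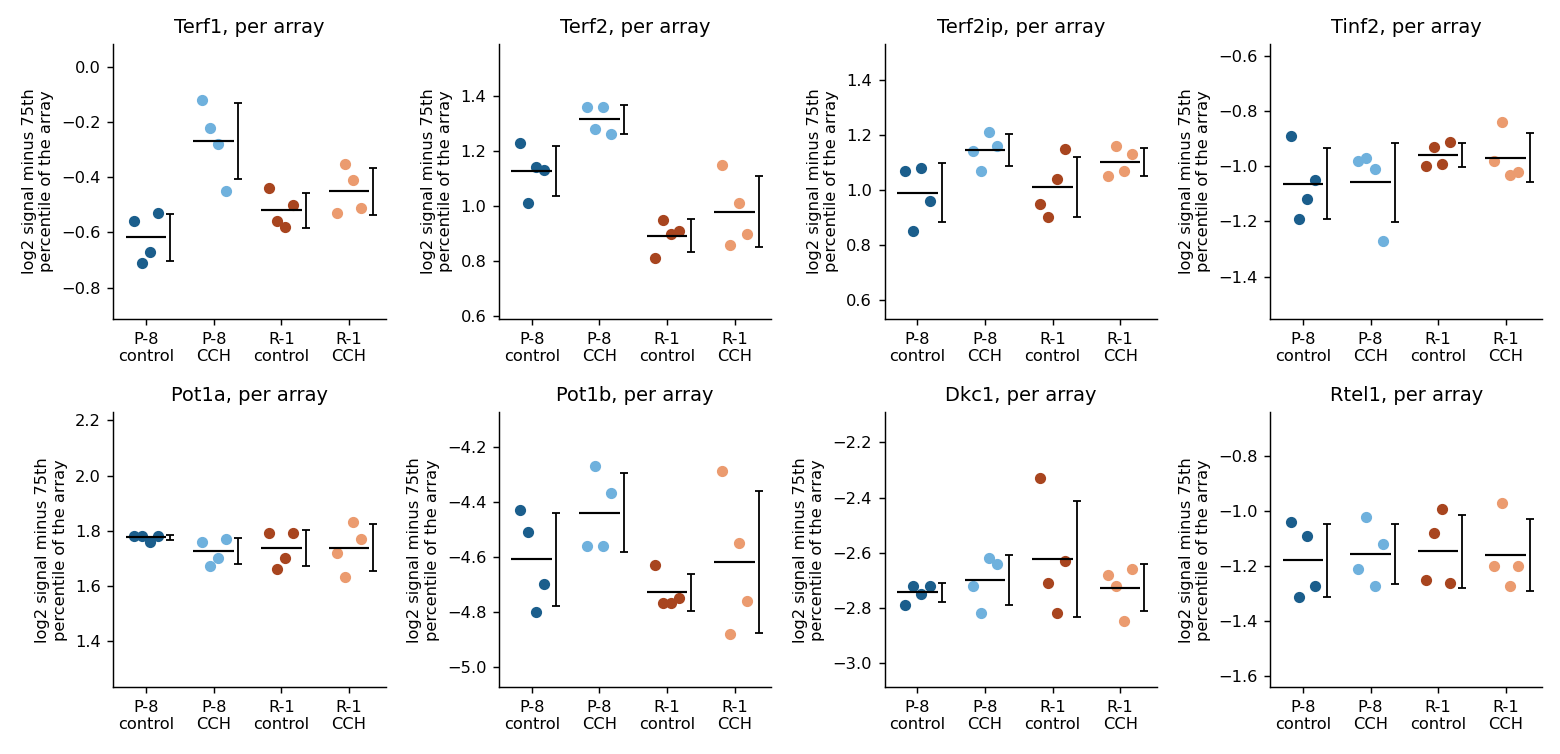
Level per array of the brightest probe of 8 genes, with log2 signal minus the 75th percentile of the array on the vertical axis (each panel spans the same range of log2 values around its own level) and the 4 groups on the horizontal axis, bars showing mean and SD, n = 4. Terf2 separates the strains on each diet, Terf1 is highest in SAM/P-8 CCH, from -0.45 to -0.12, and the groups of Rtel1, Tinf2, Pot1a, Pot1b, Dkc1 and Terf2ip overlap.

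Terf1 was higher with CCH in SAM/P-8. Its 1 probe stood at -0.56, -0.71, -0.67 and -0.53 in SAM/P-8 control and at -0.12, -0.22, -0.28 and -0.45 in SAM/P-8 CCH. It stood at -0.44, -0.56, -0.58 and -0.50 in SAM/R-1 control and at -0.53, -0.35, -0.41 and -0.51 in SAM/R-1 CCH. The SAM/P-8 arrays did not overlap between diets, and replicate 4, with the striatal markers, was the lowest of its group on CCH. With CCH the level in SAM/P-8 rose by 0.35 ± 0.07, 1.27-fold (adjusted p = 0.0370). In SAM/R-1 it was 0.07 ± 0.07 (adjusted p = 0.748), and the difference between these effects, 0.28 ± 0.10, was not called (adjusted p = 0.705). The strain differences of Terf1 were -0.10 ± 0.07 on the control diet and 0.18 ± 0.07 on the CCH diet, and neither was called (adjusted p = 0.406 and 0.110).

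The Terf1 call was close to the threshold. Its adjusted p was 0.253 under normexp (0.25), 0.0963 there without the 2 arrays (0.22), 0.0540 with quantile normalization, 0.100 when arrays were scaled to their median and 0.0628 with no filter on dim probes. It ranged from 0.0170 to 0.116 as single arrays were left out, while the effect ran from 0.30 to 0.41. When SAM/P-8 CCH replicate 4 was left out, Terf1 was called with CCH in SAM/P-8 and also between the strains on the CCH diet, where the difference reached 0.24 (adjusted p = 0.0274).

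Terf2ip had 3 probes, none called in any comparison. The brightest stood at 1.07, 0.85, 1.08 and 0.96 in SAM/P-8 control and at 1.14, 1.07, 1.21 and 1.16 in SAM/P-8 CCH. It ranged from 0.90 to 1.15 in SAM/R-1 control and from 1.05 to 1.16 in SAM/R-1 CCH. With CCH in SAM/P-8 the probes gave 0.15 ± 0.06, 0.20 ± 0.05 and -0.11 ± 0.07 (adjusted p = 0.217, 0.0885 and 0.411), so the dimmest probe had the opposite sign. The strain differences were -0.02, 0.05 and 0.15 on the control diet and 0.04, 0.12 and 0.07 on the CCH diet. At the middle probe the arrays did not overlap between the strains on CCH or between the diets in either strain, though no call was made.

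Tinf2, the bridge between the proteins on the double strand and those on the overhang, showed no called difference. It stood at -0.89, -1.19, -1.12 and -1.05 in SAM/P-8 control and at -0.98, -0.97, -1.01 and -1.27 in SAM/P-8 CCH. It was -0.96 ± 0.04 (SD, n = 4) in SAM/R-1 control and -0.96 ± 0.09 in SAM/R-1 CCH. Its strain differences were -0.10 ± 0.08 and -0.09 ± 0.08 on the control and CCH diets (adjusted p = 0.416 and 0.461), and its CCH effects 0.00 and -0.01.

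Mice carry a pair of Pot1 genes where humans have a single one. Pot1a ranged from 1.63 to 1.83 over all 16 arrays, and SAM/P-8 control, at 1.78, 1.78, 1.76 and 1.78, was the tightest group. Its differences between groups ran from -0.05 ± 0.05 for CCH in SAM/P-8 to 0.04 ± 0.05 for the strains on the control diet, and the 95% interval of the latter was -0.07 to 0.15. Pot1b was dim, with a processed signal of 38.7 ± 3.63 (SD, n = 4) in SAM/R-1 control and 54.8 ± 4.52 in SAM/P-8 CCH, and was well above background on 4 of 4 arrays of each group. It stood at -4.43, -4.51, -4.80 and -4.70 in SAM/P-8 control, at -4.56, -4.27, -4.56 and -4.37 in SAM/P-8 CCH, at -4.63, -4.77, -4.77 and -4.75 in SAM/R-1 control and at -4.29, -4.88, -4.55 and -4.76 in SAM/R-1 CCH. The groups overlapped in each of the 4 comparisons. Its differences, from 0.11 ± 0.12 to 0.18 ± 0.12, were not called, and the interval of the widest, the strain difference on the CCH diet, was -0.07 to 0.43. Under normexp that Pot1b difference turned to -0.25 with all arrays and -0.08 without the 2 arrays (adjusted p = 0.740 and 0.469), and the difference with CCH in SAM/R-1 was 0.44 and 0.03 (adjusted p = 0.573 and 0.896).

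**Figure D4:**
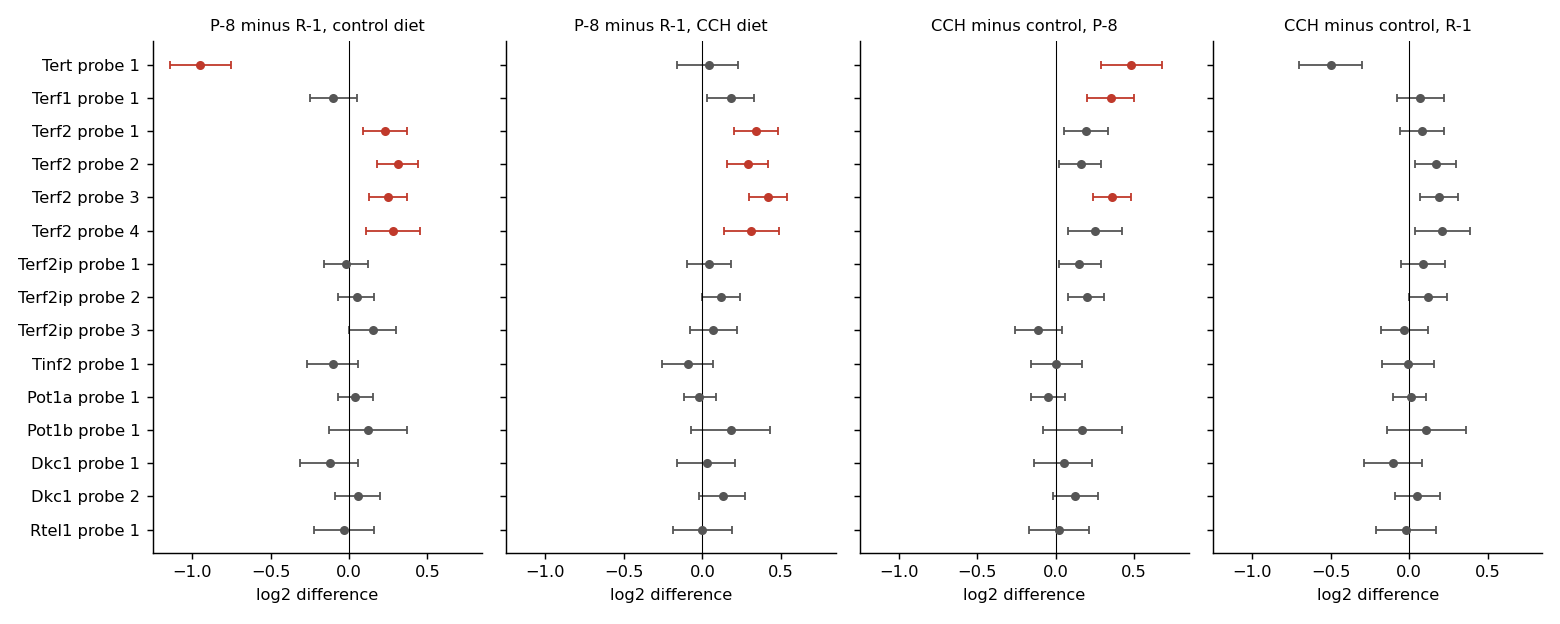
Log2 difference (horizontal axis) with its 95% interval for each of the 15 probes (vertical axis) in 4 comparisons from the limma fit, n = 4 and 4, red where the adjusted p passed 0.05; probes of a gene are numbered from the brightest. The Tert probe stands at -0.95 for the strains on the control diet and at 0.48 for CCH in SAM/P-8 and -0.50 in SAM/R-1, and the 4 Terf2 probes lie to the right of 0 for the strains on both diets.

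Counted over the 9 genes, 2 were called between the strains on the control diet, against 12.8% of 13458 genes. Terf2 was the 1 higher, against 6.18%, and Tert the 1 lower, against 6.61%. Between the strains fed CCH 1 was called, against 12.6%, and this was Terf2, higher, against 6.12%. With CCH in SAM/P-8 2 were called, Tert and Terf1, against 0.780% of all genes, and both were higher, against 0.409%. With CCH in SAM/R-1 0 were called by limma, against 0.104%, and 1, Tert, had an unadjusted p under 0.05, against 11.2% of all genes. In the interaction 1 was called, Tert, against 0.134%. The arrays did not overlap for 2 genes between the strains on the control diet (18.9% of all genes), 1 on the CCH diet (20.6%), 3 with CCH in SAM/P-8 (9.64%) and 1 with CCH in SAM/R-1 (9.86%). The median differences of the 9 genes were -0.03, 0.04, 0.15, 0.01 and 0.06 in these comparisons, where those of all genes were -0.01, -0.02, -0.02, -0.02 and -0.01. For so few genes the counts between the strains are close to the background.

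Of the 74 other telomere pathway genes, 62 had a probe that passed the filter. Between the strains on the control diet 4 were higher and 1 lower in SAM/P-8, against 6.18% and 6.61% of all genes, and on the CCH diet 8 were higher and 2 lower, against 6.12% and 6.49%. On both diets the higher genes include Terb1, which passed the filter only through SAM/P-8 CCH, so its place in these counts supports nothing. They also include Tgs1, counted at its brightest probe, though its probes disagreed in sign. No gene of the 62 was called with CCH in SAM/P-8, in SAM/R-1 or in the interaction by limma, while 10, 9 and 0 had an unadjusted p under 0.05, against 18.5%, 11.2% and 4.82% of all genes. The median difference of the 62 was 0.01 and 0.03 for the strains on the control and CCH diets, and 0.02 for CCH in each strain.

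Cdkn2b and Cdkn2d, among the senescence genes, encode inhibitors of the kinases that drive the cell cycle. Of 9 measured genes of that list, 2 were called between the strains on the control diet and 3 on the CCH diet, all higher in SAM/P-8, against 6.18% and 6.12% of all genes called higher. Cdkn2b, which encodes p15, stood at -1.61, -1.63, -1.26 and -1.28 in SAM/P-8 control and at -2.23, -2.35, -2.23 and -2.63 in SAM/R-1 control. It was 1.88-fold higher on the control diet (0.91 ± 0.12, adjusted p = 1.26e-04) and 1.61-fold higher on the CCH diet (0.68 ± 0.12, adjusted p = 0.00186). Cdkn2d, which encodes p19-INK4d and is expressed in neurons that no longer divide, stood at 3.85, 3.81, 3.86 and 3.83 in SAM/P-8 control and at 3.12, 3.14, 3.08 and 3.14 in SAM/R-1 control. It was 1.64-fold higher on the control diet (0.72 ± 0.05, adjusted p = 1.68e-07) and 1.55-fold higher on the CCH diet (0.64 ± 0.05, adjusted p = 5.80e-07). The strains did not overlap at either gene on either diet. The third called on CCH was Glb1, which encodes the lysosomal beta-galactosidase, at 0.22 (adjusted p = 0.0295), named here after its value was seen. On the control diet this Glb1 probe gave 0.17 and was not called (adjusted p = 0.0786), while its other probe was called on both diets (0.34 and 0.54, adjusted p = 0.0120 and 3.66e-04). The brighter Glb1 probe lost its CCH-diet call with arrays scaled to their median (adjusted p = 0.126), under normexp without the 2 arrays (adjusted p = 0.0545) and without SAM/P-8 CCH replicate 1 or 2 or SAM/R-1 CCH replicate 1 or 3 (highest adjusted p = 0.0934). Cdkn2d was called under each alternative run, and Cdkn2b lost its CCH-diet call under normexp with all arrays (0.47, adjusted p = 0.134).

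Among the 15 measured genes of telomerase assembly, Terc and Tgs1 were called on both diets. Tgs1, which methylates the cap of telomerase RNA, was 0.26 ± 0.07 and 0.36 ± 0.07 higher in SAM/P-8 at its brightest probe (adjusted p = 0.0209 and 0.00272). Its 3 other probes disagreed, at -0.58, 0.73 and -0.74 on the control diet, each of them called, and the mean over the probes was -0.08 on each diet and was not called (adjusted p = 0.190 and 0.231). Terb1, a meiotic protein that ties telomeres to the nuclear envelope, passed the filter only through SAM/P-8 CCH, where it was well above background on 4 of 4 arrays, so its strain differences are given as values and support nothing. It was well above background on 3 of 4 SAM/R-1 CCH, 2 of 4 SAM/P-8 control and 0 of 4 SAM/R-1 control arrays. On the control diet the Terb1 mean was -5.51 in SAM/P-8 and -6.11 in SAM/R-1 (limma adjusted p = 0.00661). No fold is given, because neither group was well above background on all its arrays. Under normexp the Terb1 difference was 0.05 with all arrays and 0.05 without the 2 arrays (adjusted p = 1.00 and 0.583). Its difference on the CCH diet was 0.56 ± 0.13 (adjusted p = 0.0119), with overlapping arrays, which turned to -0.16 under normexp with all arrays and was 0.10 without the 2 arrays (adjusted p = 0.850 and 0.323).

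On the CCH diet 3 further genes with the largest differences were Samhd1, Mre11a and Cbx5. Samhd1, an enzyme that splits deoxynucleoside triphosphates, stood at -2.53, -2.55, -2.56 and -2.26 in SAM/P-8 and at -2.80, -2.74, -2.83 and -2.80 in SAM/R-1. The Samhd1 difference was 0.32 ± 0.07 (adjusted p = 0.0106). Mre11a, the nuclease of the complex that senses broken ends, differed by 0.29 ± 0.09 at its brighter probe (adjusted p = 0.0376) and by 0.82 at the other (adjusted p = 3.70e-04). On the control diet the brighter Mre11a probe gave 0.12 and was not called (adjusted p = 0.413), while the other was (0.62, adjusted p = 0.00334). The brighter Mre11a probe lost its CCH-diet call with quantile normalization, with arrays scaled to their median and with no filter on dim probes (adjusted p = 0.0742, 0.0993 and 0.0514), and without SAM/P-8 CCH replicate 4 or SAM/R-1 CCH replicate 2, 3 or 4 (highest adjusted p = 0.0896). Cbx5, a heterochromatin protein, was lower by 0.22 at its brightest probe (-0.22 ± 0.07, adjusted p = 0.0470), with overlapping arrays, and its other probes gave 0.03 and 0.05. Under normexp with all arrays Samhd1, Mre11a and Cbx5 were not called (0.10, 0.07 and -0.15).

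With CCH the smallest p among the pathway genes in SAM/P-8 were those of Rpa1, a subunit of the single-strand binding complex (-0.20 ± 0.05, adjusted p = 0.0618), and Xrcc6, which encodes Ku70 (0.23 ± 0.07, adjusted p = 0.118). In SAM/R-1 they were those of Nop10, a partner of dyskerin (-0.15 ± 0.05, adjusted p = 0.297), and Shq1, its chaperone (0.22 ± 0.08, adjusted p = 0.314).

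Between the strains, scores did not overlap for endothelial markers on the control diet or for microglia and germ cell markers on the CCH diet. Between the diets, only the germ cell score in SAM/P-8 did not overlap. In all other cases the scores overlapped, and those of neurons, astrocytes, oligodendrocytes, striatum and choroid plexus did so in every comparison. The score of 4 endothelial markers ran from 0.01 to 0.60 in SAM/P-8 control and from -0.53 to -0.17 in SAM/R-1 control, and from 0.01 to 0.40 and -0.30 to 0.13 on the CCH diet. The 5 microglia markers ran from -0.09 to 0.16 and from -0.12 to 0.06 on the control diet, and from -0.00 to 0.19 and -0.16 to -0.03 on the CCH diet. Of 7 markers of dividing cells 4 passed the filter, and their score ran from -0.01 to 0.16 in SAM/P-8 control, -0.14 to 0.24 in SAM/P-8 CCH, -0.10 to 0.04 in SAM/R-1 control and -0.12 to -0.02 in SAM/R-1 CCH. Of these markers Top2a, Cdk1 and Ccnb1 were well above background on 6, 8 and 2 of 16 arrays. With CCH in SAM/P-8, where Tert and Terf1 were called, the score of the germ cell markers Dazl and Ddx4 ran from -0.19 to 0.02 in control and from 0.07 to 0.28 in CCH, without overlap, and in SAM/R-1 from -0.18 to 0.28 and from -0.14 to 0.04. The score of the red blood cell markers Hba-a1 and Alas2 ran from -0.19 to 2.58 in SAM/P-8 control, from -0.49 to 0.27 in SAM/P-8 CCH, from -0.79 to 0.26 in SAM/R-1 control and from -0.97 to -0.19 in SAM/R-1 CCH. Of each of these 2 lists, 2 of 3 markers had a probe that passed the filter. The germ cell marker left out, Sycp3, was well above background on 4 of 16 arrays, and the red blood cell marker left out, Hbb-b1, had no probe assigned. The part of these cells in the values of Tert, Terc, Terf1, Terf2, Cdkn2b and Cdkn2d was not tested.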

How the data were processed

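Groups were taken from the labels. Each array's deposited file gives a processed signal per spot, an intensity that was background-subtracted by Agilent Feature Extraction 9.5.3.1 per the file headers, and the median intensity of the spot and its local background. Flags of other kinds mark spots well above background, per the file headers. A table deposited by the authors holds log2 values, with each probe centred over the arrays, and served as an alternative.

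From the log2 processed signal each array's 75th percentile over non-control probes was subtracted, and spots of a probe were averaged, a probe with several spots counting as well above background where at least 50% of them were. Of 41174 probes, 29009 were kept. Probes were named through RefSeq accessions, 24844 of them with a symbol. limma 3.58.1 in R 4.3.3 fitted 1 mean per group, with Benjamini-Hochberg adjustment and a threshold of 0.05. The code was tested on simulated data. The members and lists were chosen with earlier results of these data known. Named genes are all members and, per comparison, up to 8 pathway genes past the threshold with the largest difference, or the 2 with the smallest p. The alternatives tried were normexp (offset 50), quantile and median scaling, filters on dim probes, the authors' table, the mean of a gene's probes, eBayes with trend and robust, a replicate block, and leaving out arrays.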

Additional observations from a re-analysis of the deposited data

Results flagged for a closer look

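Over 36 groups of 4 arrays (9 genes at their brightest probe), the highest or lowest array was set against the gap that Dixon's critical value at 95% allows, which chance passes in about 1 of 20 groups. It was passed in 2 groups. Tinf2 stood at -1.27 in SAM/P-8 CCH replicate 4 and between -1.01 and -0.97 on the other arrays of that group. That array also had the highest striatal marker score, 3.97. In SAM/R-1 control, Pot1b was at -4.63 on replicate 1 and between -4.77 and -4.75 on the others.

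The CCH effect on Tert differed between the strains: the effect in SAM/P-8 minus that in SAM/R-1 was 0.98 (limma adjusted p = 0.00358). Under normexp it was 0.20 with all arrays and 0.38 without SAM/P-8 CCH replicate 2 and SAM/R-1 CCH replicate 2, and was not called in either case (adjusted p = 1.00 and 0.285).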

How the results depend on the processing

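Of the differences of the 9 genes, 426 of 445 values under other settings moved by less than the spread between replicates and 19 by more. All 19 were under normexp with or without 2 arrays. The filters on dim probes, eBayes with trend and robust and the replicate block leave a difference unchanged by construction. Without single arrays 720 of 720 values moved by less, which was fixed in advance. With 4 arrays per group, leaving out 1 cannot move a difference by more than that spread. That count is therefore no evidence of stability. For CCH in SAM/P-8 the mean of a gene's probes called 3 of the 9 genes, Tert, Terf1 and Terf2, against 2 as reported. The counts of the 9 genes called fell as follows. Under normexp they were 0 for the strains on the control diet, 0 for CCH in SAM/P-8 and 0 in the interaction. Under normexp without 2 arrays, added after seeing the data, they were 0 for CCH in SAM/P-8 and 0 in the interaction. For CCH in SAM/P-8 the count was 0 with quantile normalization, 0 with the median of each array, 1 with no filter on dim probes and 1 with the replicate block. With probes well above background on all 16 arrays, which leaves Tert out, the counts were 1 for the strains on the control diet, 1 for CCH in SAM/P-8 and 0 in the interaction. The pathway genes called were 2 under normexp for the strains on the control diet. On the CCH diet they were 3 under normexp, 6 under normexp without 2 arrays and 6 with the median of each array. For CCH in SAM/P-8, eBayes with trend and robust called 1, Rpa1. The cause was not tested.

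Without single arrays, 1 to 2 of the 9 genes were called between the strains on each diet, 0 to 2 with CCH in SAM/P-8, 0 to 1 with CCH in SAM/R-1 and 1 in the interaction. Of the pathway genes, 4 to 8 were called between the strains on the control diet, with 8 without SAM/P-8 control replicate 4, and 5 to 11 on the CCH diet, with 5 without SAM/R-1 CCH replicate 3. None of the pathway genes was called in the 3 other comparisons without single arrays, with 0 in each. With CCH in SAM/P-8 0 of the 9 genes were called without SAM/P-8 CCH replicate 2 or 3 or SAM/P-8 control replicate 3.

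Over all probes, limma called 3999 and 3903 between the strains on the control and CCH diets, 243 with CCH in SAM/P-8, 33 in SAM/R-1 and 50 in the interaction. Under normexp these were 961, 841, 0, 0 and 0, and without the 2 arrays 3998, 2778, 211, 1 and 9. For CCH in SAM/P-8 145 were called with quantile normalization, 109 with the median of each array and 154 with no filter on dim probes. For CCH in SAM/R-1 17 were called with probes well above background on all arrays, 9 with eBayes with trend and robust and 20 with the replicate block, and in the interaction 32 with quantile normalization and 17 with probes well above background on all arrays. Leaving out single arrays moved the count for CCH in SAM/P-8 to between 72 and 437. It was 113, 128, 82 and 94 without SAM/P-8 CCH replicate 1, 2, 3 and 4, 437, 72 and 73 without SAM/P-8 control replicate 1, 2 and 3, 141 and 144 without SAM/R-1 CCH replicate 1 and 4, and 157 without SAM/R-1 control replicate 3. The count for CCH in SAM/R-1 moved to between 2 and 45, with 14 and 8 without SAM/R-1 CCH replicate 2 and 3, and 19, 11 and 2 without SAM/R-1 control replicate 1, 2 and 3. Higher and lower calls between the strains on the CCH diet were 1853 and 2050, against 1288 and 2278 with the median of each array and 2375 and 1930 with no filter on dim probes. The replicate numbers are positions on the slides. Same-numbered arrays deviated from their group means with correlations from -0.19 to 0.30, so the numbers did not pair the arrays in any comparison. With the replicate block 132 probes were called for CCH in SAM/P-8, where Tert stayed called (adjusted p = 0.0479) and Terf1 did not (adjusted p = 0.0660). A slide block was not run because each slide held 1 group. The Tert and Pot1b probes were the dimmest among these genes. The mean signal over local background was lower for Pot1b than for Tert in every group but SAM/P-8 control, where it was 56.4 against 54.6.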
